A study of Mus musculus with 12 samples.

Results

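The subunits of the proteasome, with their assembly chaperones, activators and inhibitor, were taken as the genes whose symbol runs from Psma to Psmg followed by a number. Psmb8, Psmb9 and Psmb10, the catalytic subunits of the immunoproteasome, were left out. The rule gave 45 of the 16942 genes in the table. Of these, 14 encode the core particle (Psma1 to Psma7 and Psmb1 to Psmb7) and 17 the regulatory particle (Psmc1 to Psmc6 and 11 Psmd genes). Another 12 encode assembly chaperones, activators and an inhibitor, and 2 encode tissue-restricted core subunits (Psma8 and Psmb11). A filter on low counts passed 43 of the 45, all but Psma8 and Psmb11.

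The tissue was small intestine of ICR, an outbred strain of laboratory mice, and the labels place the 12 RNA libraries in 4 groups of 3. Busulfan, an alkylating agent, forms cross-links in DNA. AOS is a treatment that the labels do not spell out and give as 0 or 10 with no unit. The groups were AOS0 (no busulfan, AOS at 0), AOS10 (no busulfan, AOS at 10), B+A0 (busulfan, AOS at 0) and B+A10 (busulfan, AOS at 10). The labels used here give no age, sex, dose of busulfan or time, or whether a group's 3 libraries are from 3 animals. The p-values therefore describe the spread between samples, which may be technical.

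The proteasome is the large protease that degrades proteins tagged with ubiquitin. Its core particle is a barrel of stacked rings, with alpha subunits in the outer rings that gate the entry pore and beta subunits in the inner rings, some of which carry the proteolytic sites. The regulatory particle caps the barrel: its base holds a ring of ATPases that unfold the substrate, and its lid removes the ubiquitin chain. In the intestinal epithelium, which renews itself throughout life, the proteasome serves the turnover of cell cycle regulators and of misfolded proteins, and it makes peptides for antigen presentation.

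Libraries held 13560232 to 16818245 counts. Absorptive enterocyte, goblet and Paneth cell markers were abundant in all libraries (summed FPKM, a level scaled to library size and transcript length, of at least 5657, 7755 and 4226, respectively), while 5 smooth muscle markers summed to at most 1.24 FPKM. Markers of T and natural killer (NK) cells differed with busulfan at AOS 0. The sum over 9 of 9 listed genes was 149 to 275 FPKM in AOS0 and 33.3 to 91.4 in B+A0, and 6 of the 9 fell in B+A0 against AOS0 (edgeR, adjusted p under 0.05). At AOS 10 the sums overlapped, at 138 to 175 FPKM in AOS10 and 82.9 to 236 in B+A10. The sum of 5 mast cell markers was 54.3 to 140.4 FPKM in AOS0 and 12.6 to 18.0 FPKM in B+A0, with 4 lower. The sum of 5 Paneth cell markers was 5368 to 8981 FPKM in AOS0 and 9312 to 12241 FPKM in B+A0, without overlap (median log2 fold change 0.59, 0 of 5 called). The sum of 5 goblet markers was 11561 to 13849.9 and 7755 to 10550.4 FPKM, also without overlap (-0.25, 0 of 5 called). The 9 enterocyte markers summed to 9560 to 11190.4 and 5657 to 11899 FPKM (-0.37, 0 of 9 called). Proteasome genes are transcribed in every cell type of the tissue, and in a bulk sample fewer cells of a type and less RNA per cell cannot be told apart. The part of these cell types in the results below was not tested.

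The promoters of Psme3 and Psmg1 are shown because these genes are among the 3 that passed the test in any comparison. Each is the 250 bases before the transcription start (RefSeq, GRCm38.p6), written from 5′ to 3′ on the strand of the gene, with matches to the searched motifs in capitals. The Psme3 window is chr11:101315963-101316212 on the + strand and the Psmg1 window is chr16:95990961-95991210 on the - strand.
Psme3: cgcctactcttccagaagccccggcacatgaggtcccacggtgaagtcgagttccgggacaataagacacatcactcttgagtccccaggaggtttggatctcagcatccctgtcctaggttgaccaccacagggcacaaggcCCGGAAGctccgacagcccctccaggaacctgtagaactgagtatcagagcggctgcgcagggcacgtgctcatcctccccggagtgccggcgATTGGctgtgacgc
Psmg1: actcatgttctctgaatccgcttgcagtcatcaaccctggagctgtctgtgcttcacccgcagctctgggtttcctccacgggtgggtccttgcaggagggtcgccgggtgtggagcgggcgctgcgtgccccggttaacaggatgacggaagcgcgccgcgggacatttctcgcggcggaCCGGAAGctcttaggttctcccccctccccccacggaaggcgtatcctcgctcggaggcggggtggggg
In both windows CCGGAAG, the core bound by ETS-family factors, is in capitals, at 107 to 101 bases before the start of Psme3 and at 69 to 63 bases before the start of Psmg1. In the Psme3 window ATTGG, which is CCAAT on the other strand, lies 14 to 10 bases before the start.

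Windows were found for 37 of the 45 genes (40 windows). Not matched were Psma8, Psmb1, Psmb2, Psmb7, Psmc3, Psmd3, Psmd7 and Psmg2. In all, 6 motifs were searched on both strands, and some of them share letters and may overlap. CCGGAAG was present in 13 of the 40 windows (32.5%), those of 12 genes, 8 of them regulatory particle genes (Psmc1, Psmc2, Psmc6, Psmd2, Psmd4, Psmd6, Psmd11 and Psmd12). The others were Psma6, Psme3, Psme4 and Psmg1. The regulatory particle has 17 of the 45 genes, and of these Psmc3, Psmd3 and Psmd7 had no window. The same letters were in 13.3% of 12610 windows of all tested genes and in 6.91% of all 32851 windows. TGACNNNGC, the core of the antioxidant response element that the proteasome regulator Nfe2l1 binds, was in 5 windows (12.5%, those of Psmb5, Psmb6, Psmc6, Psmd9 and Psmd12), against 11.8% for tested genes. The remaining motifs were near the share of tested genes. The CCAAT box (CCAAT) was in 32.5% against 35.7%, the GC box (GGGCGG) in 55% against 56.3% and the heat shock pair GAANNTTC in 5% against 4.96%. The cyclic AMP response element TGACGTCA was in 0 of the 40 windows and in 2.52% of those of tested genes. A match says only that the letters are present in the window.

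In AOS0 the core subunits were the more abundant of the 2 particles per transcript length. Their mean levels had a median of 178 FPKM and ran from 107 FPKM (Psma3) to 304 FPKM (Psmb3), a 2.84-fold span. Regulatory particle subunits had a median of 92.4 FPKM and ran from 47.8 FPKM (Psmd12) to 136 FPKM (Psmc5), a 2.85-fold span. Within the core, 4 beta subunits led: Psmb3 at 304 ± 18.9 FPKM (SD, n = 3, as for all values here), Psmb1 at 265 ± 23.9, Psmb2 at 241 ± 9.20 and Psmb4 at 220.4 ± 7.34 FPKM. Psmb3 and Psmb1, and Psmb1 and Psmb2, differed by less than the sum of their SDs.

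The 3 catalytic beta subunits stood below those 4. Psmb7, which carries the trypsin-like site, was at 175 ± 8.56 FPKM and Psmb6, with the caspase-like site, at 166 ± 2.51 FPKM, close to each other. Psmb5, with the chymotrypsin-like site, was at 109.8 ± 2.69 FPKM. All 3 values of Psmb5 in AOS0 (108, 113 and 109 FPKM) lay below all 3 of Psmb6 (168, 163 and 166 FPKM). Among alpha subunits Psma7 led with 217 ± 19.1 FPKM, and Psma1 and Psma3 were lowest, at 128 ± 13.9 and 107 ± 10.9 FPKM.

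In the regulatory particle, the ATPase Psmc5 (136 ± 3.98 FPKM) and the lid subunit Psmd8 (136 ± 3.79 FPKM) had nearly the same mean. The ATPases each take a place in the same ring, and their transcripts ran from 49.4 ± 4.72 FPKM (Psmc6) to 136 FPKM. Psmd4, a ubiquitin receptor of the base, was at 113 ± 7.09 FPKM, and Psmd14, the deubiquitinase of the lid, at 64.0 ± 6.72 FPKM.

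Assembly factors were lower than any subunit of either particle. The core chaperones Psmg1, Psmg2, Psmg3 and Psmg4 lay between 24.9 and 28.9 FPKM, within each other's spread. The base chaperones Psmd5, Psmd10 and Psmd9 were at 22.3 ± 1.83, 13.9 ± 1.23 and 8.93 ± 1.09 FPKM, and Psmf1, which encodes an inhibitor that binds the core, was at 16.9 ± 0.510 FPKM. The activators spanned the widest range. Psme2 (597 ± 84.1 FPKM) and Psme1 (369 ± 23.2 FPKM), which form an interferon-inducible ring on the core, were the most abundant of the 45 genes. Psme3, the nuclear activator, was at 95.4 ± 5.09 FPKM, so Psme2 was 6.25-fold above it, and Psme4, linked to chromatin and spermatogenesis, was at 13.4 ± 1.23 FPKM.

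Psma8, a core subunit of the testis, and Psmb11, a core subunit of the thymic cortex, were near 0 in every library. Psma8 had 11 counts over the 12 libraries, with 0 to 2 in each, and Psmb11 had 4, with 0 or 1 in each. Neither was tested.

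**Figure D1:**
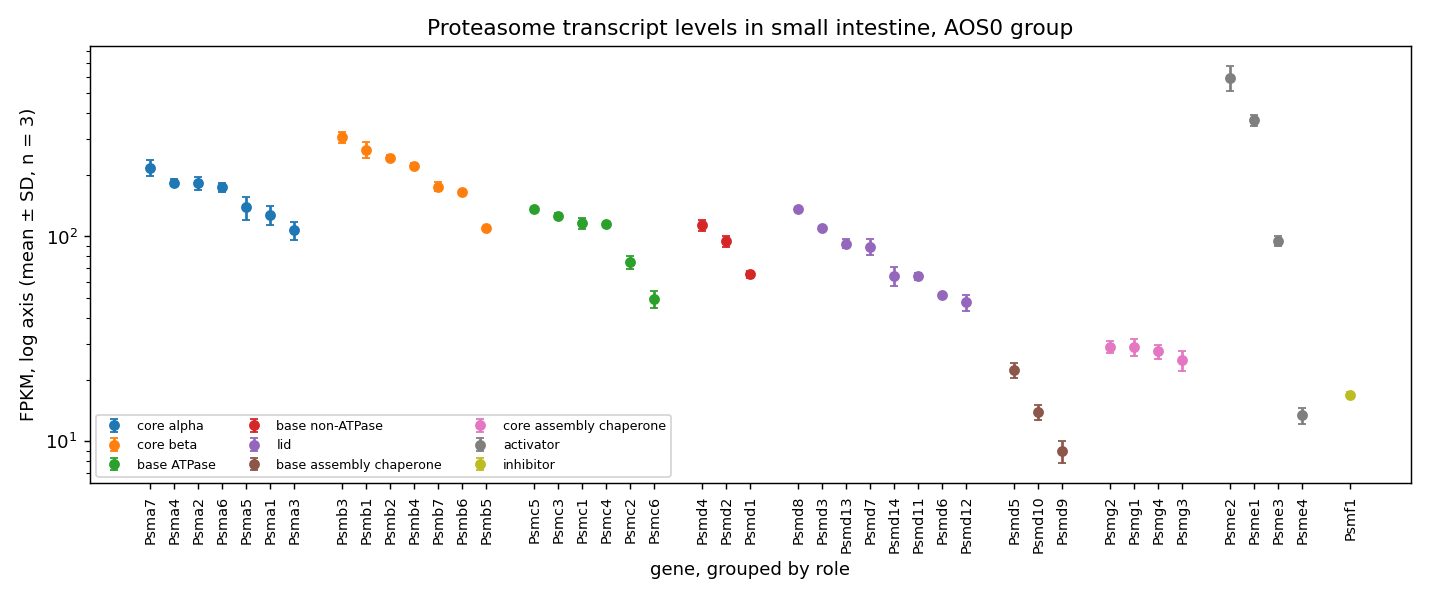
Mean FPKM (log axis) of the 43 tested genes in the AOS0 group, with bars for the SD over 3 libraries, grouped and coloured by role. Core subunits lie at 107 to 304 FPKM and regulatory particle subunits at 47.8 to 136 FPKM, and Psme2 and Psme1 stand above all subunits.

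Levels varied little over the study. Over the 12 libraries the coefficient of variation of the 43 tested genes was 3.22% to 19.3%, with a median of 8.55%, and the smallest count of a tested member in any library was 138. The 45 genes together took 0.572% (B+A10 replicate 2) to 0.658% (B+A0 replicate 3) of all counts. By group mean FPKM, B+A0 was highest for 30 of the 43 genes and lowest for 0, and B+A10 was highest for 0 and lowest for 19. On library-scaled counts, B+A0 replicate 3 alone was the highest of the 12 libraries for 21 of the 43 genes. These counts by group and by library were not made over all tested genes, so they cannot be read as particular to the family.

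The comparison of B+A0 with AOS0 gives the difference after busulfan alone. Proteasome transcripts were mostly somewhat higher after busulfan, and 3 of the 43 passed the test: the core chaperone Psmg1, the lid subunit Psmd3 and the activator Psme3. None was lower at the same threshold (edgeR quasi-likelihood test, adjusted p under 0.05). Of 12329 tested genes, 3.64% were called, 1.70% as higher and 1.94% as lower (at the background share 1.57 of 43 genes would be called). Of all 43 log2 fold changes, 37 were above 0, against 48.8% of all genes, and their median was 0.10, against -0.01 for all genes. Of the 40 that did not pass, 34 were above 0. By limma on log2(FPKM + 1) the median of the family was 0.06, with 31 above 0. On library-scaled counts (TMM) the 2 groups did not overlap for 23 genes, all higher in B+A0, where 29.0% of all genes did not overlap, 14.4% higher and 14.6% lower. On the FPKM scale, which carries no such scaling, 15 were higher without overlap and 0 lower, against 9.68% and 17.2% of all genes. The median difference in mean FPKM was 4.27%. The summed T and NK cell markers differed between the same groups (149 to 275 FPKM in AOS0, 33.3 to 91.4 FPKM in B+A0), as did the Paneth and goblet marker sums, and their part in these values was not tested.

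Psmg1, which pairs with Psmg2 in a dimer that scaffolds the assembly of the alpha ring, was at 30.8, 30.0 and 25.7 FPKM in AOS0 and at 33.7, 39.2 and 38.5 FPKM in B+A0. Every B+A0 library lay above every AOS0 library. By edgeR it differed by 0.41 on the log2 scale (SE 0.095, adjusted p = 0.0376), a 32.9% rise. Its gene (gene ID 56088) lies on GRCm38 chromosome 16, 95979933 to 95990960, on the - strand.

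Psmd3, a scaffold subunit of the lid, was at 113, 109 and 108 FPKM in AOS0 and at 135, 129.8 and 149.7 FPKM in B+A0. The groups were again apart, with B+A0 replicate 3 the highest. By edgeR it differed by 0.37 on the log2 scale (SE 0.088, adjusted p = 0.0406), a 29.3% rise. Its gene (gene ID 22123; chromosome 11, 98682554 to 98695978, + strand) overlaps Gm12356 on the opposite strand. Reads of the 2 cannot be told apart, since the sources used here do not give the strand setting of the counting. The same limit holds for other members: 15 of the 45 overlap a gene on the opposite strand and 9 one on the same strand, 19 in all. Among them are Psmc3 with Slc39a13, Psmd13 with Sirt3, Psmb7 with Nek6 and Psme1 with Emc9.

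Psme3 was at 98.4, 98.3 and 89.6 FPKM in AOS0 and at 104, 122 and 123 FPKM in B+A0. The groups did not overlap, and B+A0 replicate 1 lay closest to AOS0. By edgeR it differed by 0.33 on the log2 scale (SE 0.082, adjusted p = 0.0464), a 25.5% rise (gene ID 19192, chromosome 11, 101316213 to 101323537, + strand). The interferon-inducible activators did not pass the test. Psme1 was at 369 ± 23.2 FPKM in AOS0 and 383 ± 14.7 FPKM in B+A0, and Psme2 at 597 ± 84.1 and 572 ± 31.9 FPKM, with log2 fold changes of 0.10 and -0.02 (adjusted p = 0.558 and 0.944, edgeR). Whether Psme3 differed from them in its change was not tested.

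These 3 calls depend on the fit and on single libraries. In a fit of the 2 groups alone, 0 genes of the family passed, and 0 passed when any 1 of AOS0 replicates 1, 2 and 3 or B+A0 replicates 2 and 3 was left out, while 5 passed without B+A0 replicate 1, where 8.79% of all genes were called. Of all genes, 1.99% were called in the fit of the 2 groups. Calls also fell outside the family: with B+A0 replicate 3 dropped, 21 genes were called in all, against 449 in the main fit. The 0 family calls without that library therefore cannot be read as particular to the family. For the other left-out libraries that gave 0, the family was not set against all genes. Those 0 calls therefore cannot be read as particular to the family either. DESeq2 called 9, and 8.32% of all genes: these 3 with Psma7, Psmb4, Psmc3, Psmd2, Psmd7 and Psmd13.

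**Figure D2:**
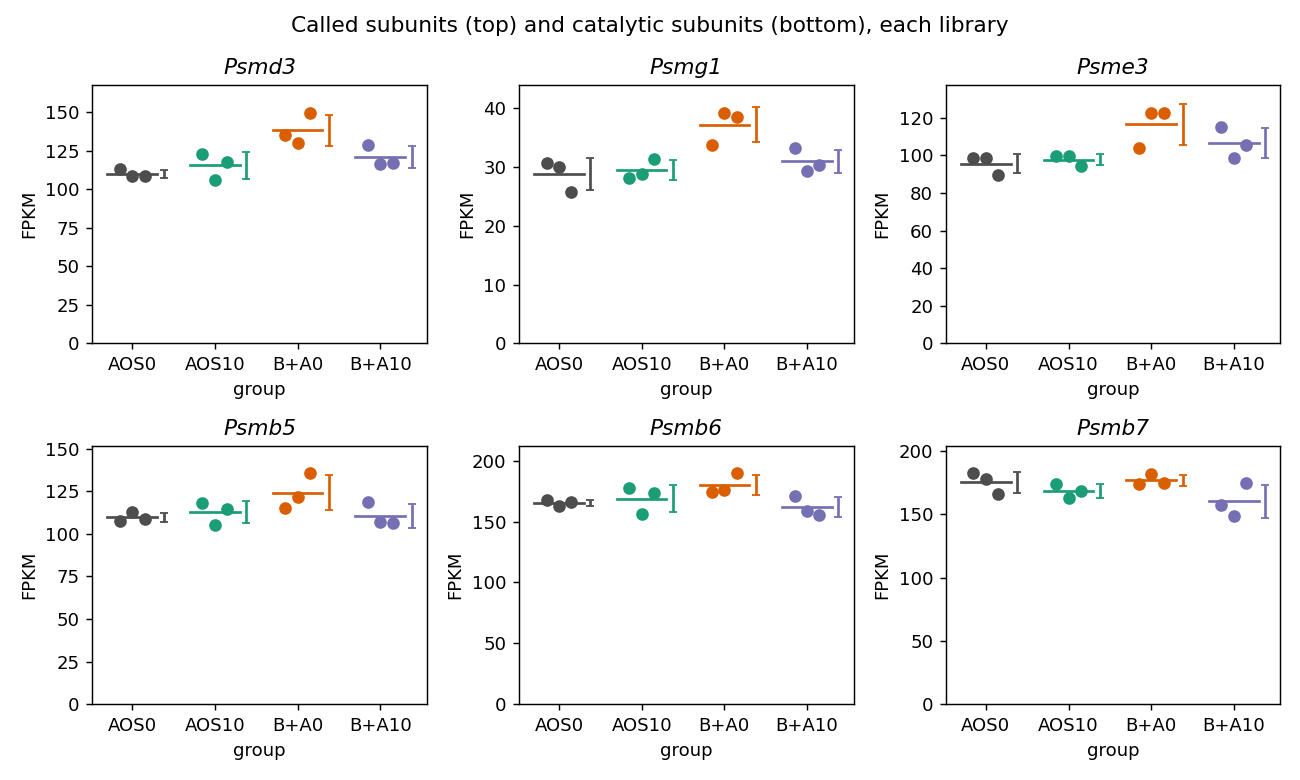
FPKM of Psmd3, Psmg1 and Psme3 (top) and of the catalytic subunits Psmb5, Psmb6 and Psmb7 (bottom) in each of the 12 libraries, by group; lines are group means and bars the SD over 3 libraries, and axes start at 0. In the top panels the 3 B+A0 points lie above the 3 AOS0 points, while for Psmb7 the groups overlap.

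Within the core, the beta ring and the alpha ring had different medians. All 7 beta subunits had log2 fold changes above 0, with a median of 0.22, and 4 of the 7 alpha subunits did, with a median of 0.03. These signs depend on the fit. With a trend on transcript GC content removed (described below), Psma1, Psma2 and Psma4 were at 0.02, 0.09 and 0.01, and Psmb1 was at -0.006. None of the 14 passed the test, and 5 had an unadjusted p under 0.05, all higher, against 22.1% of all genes. Psmb3 was at 325, 289 and 298 FPKM in AOS0 and at 332, 326 and 397 FPKM in B+A0 (edgeR: 0.26 on the log2 scale, SE 0.093, adjusted p = 0.132). Its groups are apart by less than 1 FPKM, and without B+A0 replicate 3 its log2 fold change was 0.16. Psmb4 was at 228, 213 and 219.7 FPKM in AOS0 and at 241, 253 and 264 FPKM in B+A0 (edgeR: 0.24 on the log2 scale, SE 0.074, adjusted p = 0.0836).

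Of the catalytic subunits, Psmb5 was at 108, 113 and 109 FPKM in AOS0 and at 115, 122 and 136 FPKM in B+A0. Psmb6 was at 168, 163 and 166 FPKM in AOS0 and at 175, 176 and 189.6 FPKM in B+A0. Psmb7 was at 182, 177 and 166 FPKM in AOS0 and at 173, 182 and 174 FPKM in B+A0. The groups were apart for Psmb5 and Psmb6 and overlapped in FPKM for Psmb7. Their log2 fold changes were 0.22, 0.17 and 0.05, with adjusted p of 0.155, 0.248 and 0.696 (edgeR). Psmb5, Psmb6 and Psmb7 have 4 named pseudogenes between them in the annotation, whose reads may have been split with theirs.

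Psma7 was the alpha subunit farthest from 0: 237, 199 and 214 FPKM in AOS0 and 246, 247 and 258 FPKM in B+A0 (edgeR: 0.25 on the log2 scale, SE 0.077, adjusted p = 0.0836). The other 6 alpha subunits had log2 fold changes between -0.06 (Psma1) and 0.08 (Psma3).

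For the base ATPases the log2 fold changes had a median of 0.15, with 5 of 6 above 0 and 0 passing the test. Psmc3 was at 130.4, 123 and 126 FPKM in AOS0 and at 143, 142 and 155 FPKM in B+A0 (edgeR: 0.26 on the log2 scale, SE 0.071, adjusted p = 0.0630). Psmc6 alone was below 0, at 49.4 ± 4.72 FPKM in AOS0 and 46.5 ± 3.29 FPKM in B+A0, values that overlap. Of the non-ATPase base subunits, the large scaffold Psmd2 was at 98.9, 97.0 and 88.1 FPKM in AOS0 and at 106, 107 and 112 FPKM in B+A0 (edgeR: 0.24 on the log2 scale, SE 0.075, adjusted p = 0.0881). Psmd4 was at 113 ± 7.09 and 118 ± 3.30 FPKM.

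In the lid, all 8 subunits had log2 fold changes above 0 (median 0.15), and Psmd3 alone passed. Psmd7, the partner of the deubiquitinase Psmd14, was at 97.2, 88.5 and 82.0 FPKM in AOS0 and at 96.8, 111 and 114 FPKM in B+A0 (edgeR: 0.31 on the log2 scale, SE 0.088, adjusted p = 0.0677), so that the highest AOS0 and the lowest B+A0 library crossed in FPKM. Psmd14 itself was at 64.0 ± 6.72 and 62.8 ± 4.24 FPKM. Psmd8, the most abundant lid transcript, was at 136 ± 3.79 and 135 ± 3.87 FPKM.

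Among assembly factors all 4 core chaperones and all 3 base chaperones were above 0, with medians of 0.20 and 0.09, and Psmg1 alone passed. Its dimer partner Psmg2 was at 30.0, 30.1 and 26.6 FPKM in AOS0 and at 29.4, 31.4 and 28.9 FPKM in B+A0, which overlap (edgeR: 0.09 on the log2 scale, SE 0.090, adjusted p = 0.588). Psmg3 was at 27.7, 24.7 and 22.2 FPKM in AOS0 and at 24.4, 30.8 and 34.5 FPKM in B+A0 (edgeR: 0.31 on the log2 scale, adjusted p = 0.181). Of the base chaperones, Psmd9 was at 8.93 ± 1.09 and 10.1 ± 0.682 FPKM and Psmd5 at 22.3 ± 1.83 and 23.2 ± 1.02 FPKM. The inhibitor Psmf1 was at 16.9 ± 0.510 and 17.5 ± 0.700 FPKM, and Psme4 at 13.4 ± 1.23 and 12.7 ± 1.06 FPKM. Of these 4, no gene passed the test.

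B+A10 was set against B+A0 to read the difference with AOS under busulfan. No gene of the family was called, and 0 (0%) of all 12329 genes were (edgeR, adjusted p under 0.05). At an unadjusted p under 0.05 there were 5 of the 43, all lower, against 9.81% of all genes. DESeq2 called 0 of the family, and its counts over all genes are given in the last section. The direction was close to uniform: 41 of 43 log2 fold changes were below 0, all 14 core and all 17 regulatory particle subunits among them, with a median of -0.14 against 0.01 for all genes, 51.8% of which were above 0. The exceptions were the activators Psme1 and Psme4, at 0.01 and 0.04. On the TMM-scaled counts 7 genes were lower without overlap and 0 higher, where 10.2% of all genes did not overlap, 5.41% lower and 4.83% higher. They were Psmb4, Psmb7, Psmc1, Psmc5, Psmd2, Psmg1 and Psmg2. In FPKM 13 were lower without overlap and 0 higher, against 5.01% and 4.53% of all genes, and the median difference in mean FPKM was -9.33%.

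Psmg2 had the smallest p of the family: 29.4, 31.4 and 28.9 FPKM in B+A0 and 23.4, 21.4 and 24.4 FPKM in B+A10 (edgeR: -0.37 on the log2 scale, SE 0.091, adjusted p = 0.280). All 3 B+A10 libraries lay below all 3 B+A0 libraries. Psmg1 was at 33.2, 29.4 and 30.3 FPKM in B+A10, below its 3 B+A0 values (edgeR: -0.26 on the log2 scale, SE 0.094, adjusted p = 0.415). Psmd3 was at 129, 117 and 117 FPKM in B+A10 (edgeR: -0.19 on the log2 scale, adjusted p = 0.509), each below the lowest B+A0 value in FPKM. Psme3 was at 115, 98.7 and 106 FPKM in B+A10, which overlaps B+A0 (edgeR: -0.12 on the log2 scale, adjusted p = 0.645).

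The catalytic subunits had similar differences: Psmb5 was at 119, 107 and 106 FPKM in B+A10, Psmb6 at 171, 158 and 156 FPKM and Psmb7 at 157, 149 and 174 FPKM. Their log2 fold changes were -0.16, -0.15 and -0.14 (adjusted p = 0.565, 0.566 and 0.543, edgeR). The B+A0 libraries serve in this comparison and in the preceding one, so the opposite signs of the 2 are not independent of each other.

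**Figure D3:**
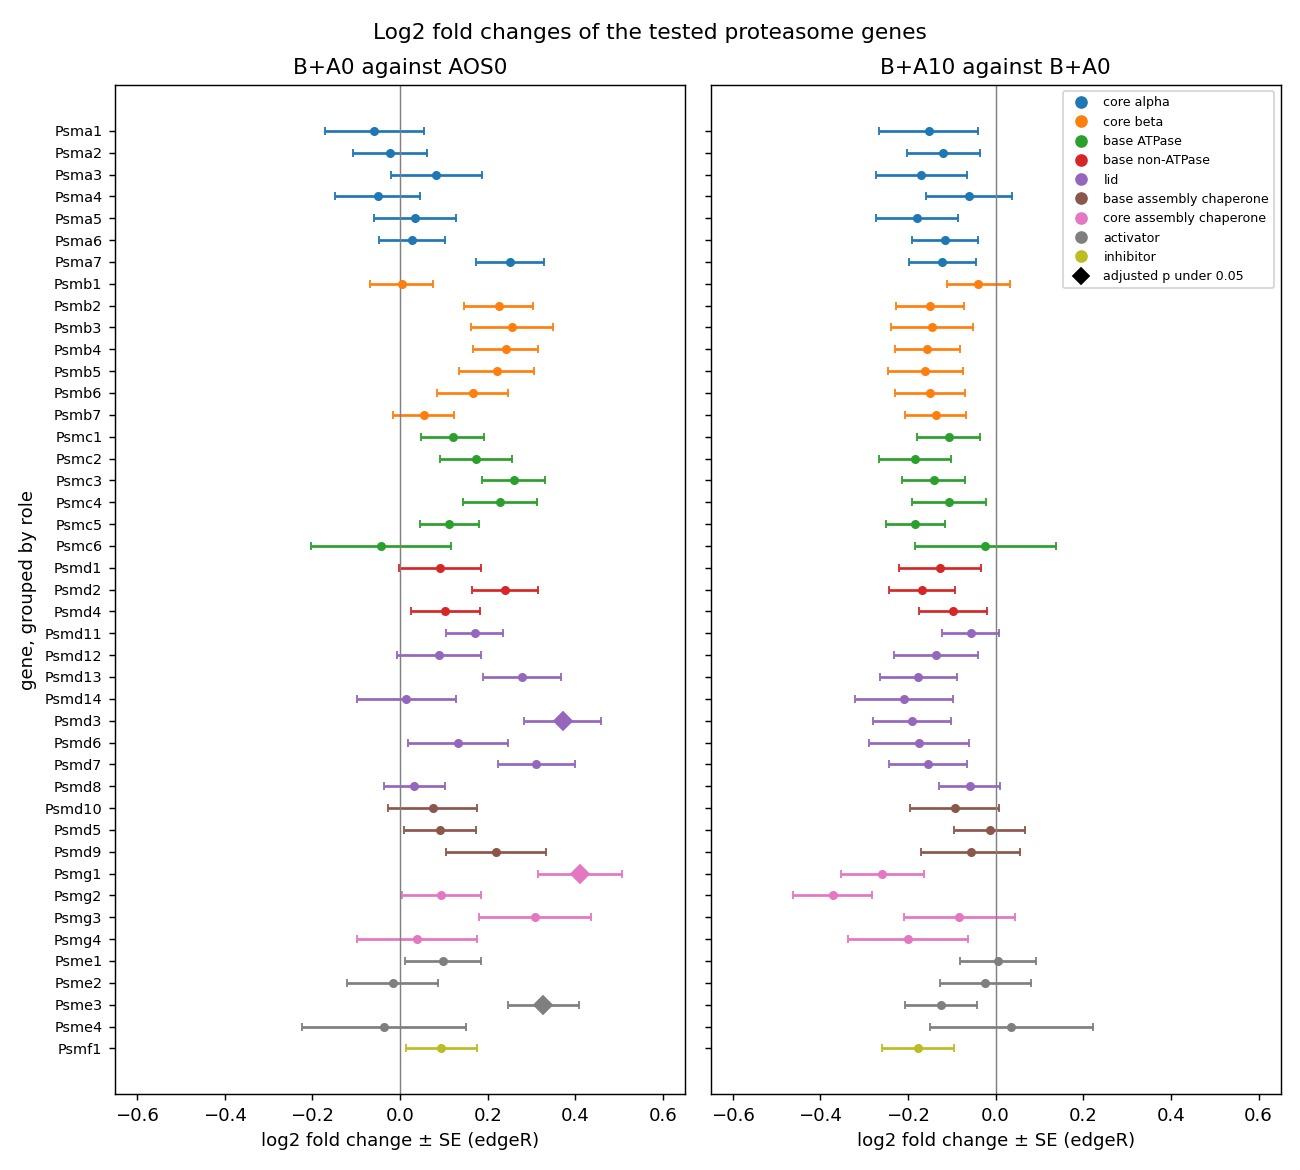
Log2 fold changes with SE (edgeR, 3 against 3 libraries) of the 43 tested genes for B+A0 against AOS0 (left) and B+A10 against B+A0 (right), grouped by role; diamonds mark an adjusted p under 0.05. At left 37 genes lie above 0 and 3 are diamonds, and at right 41 lie below 0 and none is a diamond; both panels use the B+A0 libraries.

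In the remaining comparisons no gene of the family passed. For AOS10 against AOS0, 24 of the 43 log2 fold changes were above 0 with a median of 0.03, and 0 (0%) of all genes were called. At an unadjusted p under 0.05 (6.23% of all genes) there was 1 gene, Psme1, at 396, 356 and 356 FPKM in AOS0 and 449, 422 and 391 FPKM in AOS10 (edgeR: 0.22 on the log2 scale, SE 0.087, adjusted p = 0.755). On scaled counts 6 of the 43 did not overlap, 4 higher and 2 lower, against 20.7% of all genes.

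For B+A10 against AOS10, the family had a median of -0.01 with 18 of 43 above 0 (50.9% of all genes), where 0.162% of all genes were called, 0.146% as higher and 0.0162% as lower. At an unadjusted p under 0.05 there were 0 of the 43, against 10.2% of all genes. Groups did not overlap for 4 genes higher and 1 lower, against 7.97% and 6.92% of all genes. For B+A10 against AOS0, the median was 0.0001 with 22 above 0 (50.0% of all genes), where 0.957% of all genes were called, 0.754% as higher and 0.203% as lower. Groups did not overlap for 6 genes higher and 1 lower, against 9.25% and 8.60% of all genes. Here 2 genes had an unadjusted p under 0.05 (15.7% of all genes), Psmg2 (edgeR: -0.28 on the log2 scale, adjusted p = 0.157) and Psme3 (0.20, adjusted p = 0.251, edgeR). DESeq2 called 0 of the family in each of these 3 comparisons, and its counts over all genes are given in the last section. Without B+A10 replicate 3, 2 genes were called as lower in B+A10 than in AOS0, Psma1 and Psmd14, where 6.10% of all genes were called. That library stood apart for both: Psma1 was at 97.6, 91.9 and 131 FPKM in B+A10 and Psmd14 at 48.0, 47.2 and 67.7 FPKM, with replicate 3 the highest, as it was for Psmc6 (34.9, 39.5 and 63.2 FPKM).

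The interaction of busulfan and AOS, which asks whether the difference with AOS was the same with and without busulfan, was called for 0 of the 43 genes and for 0 (0%) of all genes (edgeR). At an unadjusted p under 0.05 there were 7 of the 43, all below 0, against 6.85% of all genes. DESeq2 called 0 of the family, and its count over all genes is given in the last section. The interaction was below 0 for 38 of the 43, with a median of -0.16 against 0.01 for all genes, 52.0% of which were above 0. The smallest p belonged to Psmb4 (-0.27, SE 0.105, adjusted p = 0.67, edgeR) and Psmc3 (-0.26, SE 0.101, adjusted p = 0.67, edgeR).

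Core and regulatory particle were then compared within each library, as the mean log2(FPKM + 1) of the 14 core genes minus that of the 17 regulatory particle genes. This difference was 1.06, 1.00 and 1.07 in AOS0, and 1.06 in each of the 3 AOS10 libraries. It was 1.01, 0.98 and 0.98 in B+A0 and 0.99, 1.01 and 0.98 in B+A10. By this mean over genes, the ratio of core to regulatory particle was 2.06, 2.09, 1.99 and 1.99 for the group means of AOS0, AOS10, B+A0 and B+A10.

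The busulfan libraries tended to the lower end, but AOS0 replicate 2 lay among them, below B+A0 replicate 1 and B+A10 replicate 2. The AOS10 and B+A10 libraries did not overlap. From AOS0 to B+A0 the difference moved by -0.05, with the core mean higher by 0.06 and the regulatory particle mean higher by 0.12. From AOS10 to B+A10 it moved by -0.07, with the core at -0.05 and the regulatory particle at 0.02. From B+A0 to B+A10 it moved by 0.0035, as both particles were lower by nearly the same amount (-0.139 and -0.142). No test was made, since genes of a particle are not replicates. Taking the median over genes in place of the mean gave -0.27 from AOS0 to B+A0 and -0.20 from AOS10 to B+A10, the same sign but several times larger. As a ratio of median FPKM over genes, the libraries lay at 1.91 to 1.98 in AOS0, 1.87 to 1.89 in AOS10, 1.53 to 1.67 in B+A0 and 1.48 to 1.78 in B+A10. By this measure the busulfan libraries lay below all others.

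**Figure D4:**
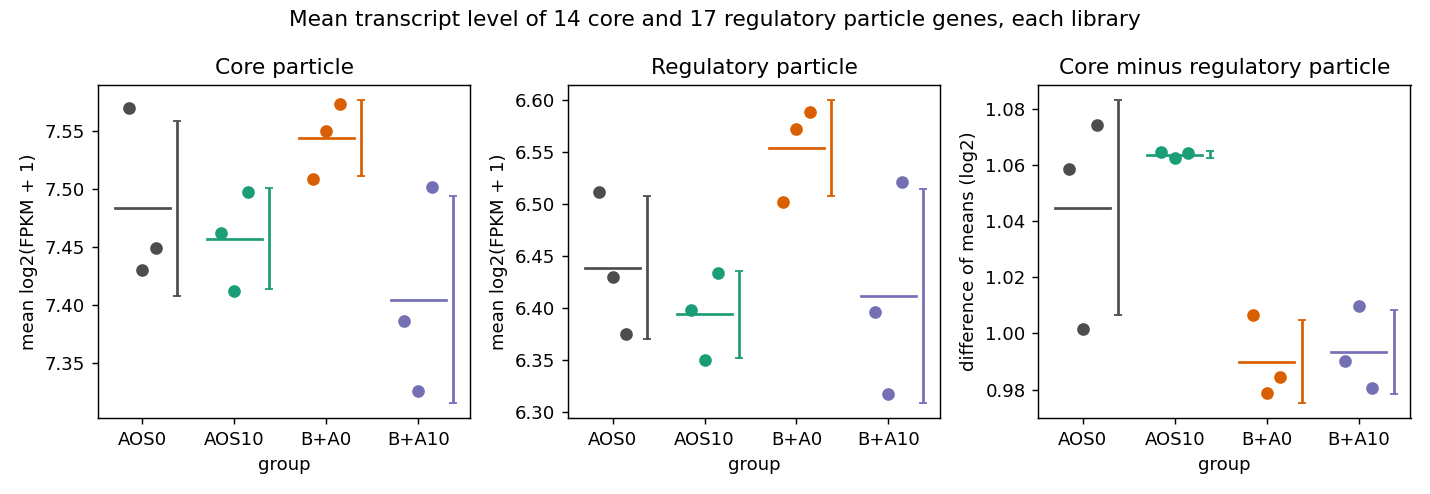
Mean log2(FPKM + 1) of the 14 core genes (left), the 17 regulatory particle genes (middle) and their difference (right) in each library, by group, with group means as lines and SD over 3 libraries as bars; the axes do not start at 0. In the right panel the AOS10 libraries lie at 1.06 and the 6 busulfan libraries at 0.98 to 1.01, with AOS0 replicate 2 at 1.00.

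Among the 43 genes, the log2 fold changes ran with the GC content of the transcript. For B+A0 against AOS0 Pearson's r across genes was 0.61 (n = 43; genes share libraries and are not independent), against 0.14 across 12110 of all tested genes. For AOS10 against AOS0, where no gene was called, r was 0.68 against 0.23. For B+A10 against B+A0 it was -0.13 against -0.04. The 22 genes at or above the median GC content of 49.7% had a median of 0.23 (log2) in B+A0 against AOS0, 21 of them above 0. The 21 genes below it had a median of 0.07, with 16 above 0. The alpha and beta subunits differ in the same property, with median GC contents of 45.0% and 52.2%. Psmd3, at 58.3%, has the highest GC content of the family and Psmc6, at 37.0%, the lowest.

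The same property separated libraries within groups. Across the 43 genes, the deviation of a library from the mean of all 12 had an r with GC content of 0.73 for B+A10 replicate 1 and -0.72 for B+A10 replicate 3, which belong to 1 group. Over all tested genes these values were 0.36 and -0.56. With a trend on GC content removed from each library, an alternative added after seeing the data, 4 genes of the family were called as higher in B+A0 than in AOS0, against 6.70% of all genes called: Psmd3 (edgeR: 0.31 on the log2 scale, adjusted p = 0.0209), Psmg1 (0.37, adjusted p = 0.0273), Psme3 (0.31, adjusted p = 0.0285) and Psmd7 (0.29, adjusted p = 0.0454). In that fit 39 of 43 were above 0 with a median of 0.12, and in B+A10 against B+A0 1 of 43 was above 0 with a median of -0.13. For B+A0 against AOS0, Psma1, Psma2, Psma4, Psmc6 and Psme4, below 0 in the main fit, were at 0.02, 0.09, 0.01, 0.09 and 0.04. Psmb1, Psmd8 and Psmg4, above 0 in the main fit, were at -0.006, -0.02 and -0.02. By sign, the alpha and beta subunits were therefore not set apart in that fit. By size they still differed: the middle alpha value was 0.06 (Psma6) and the middle beta value 0.16 (Psmb5). The part of GC content in the difference between the rings was not tested.

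**Figure D5:**
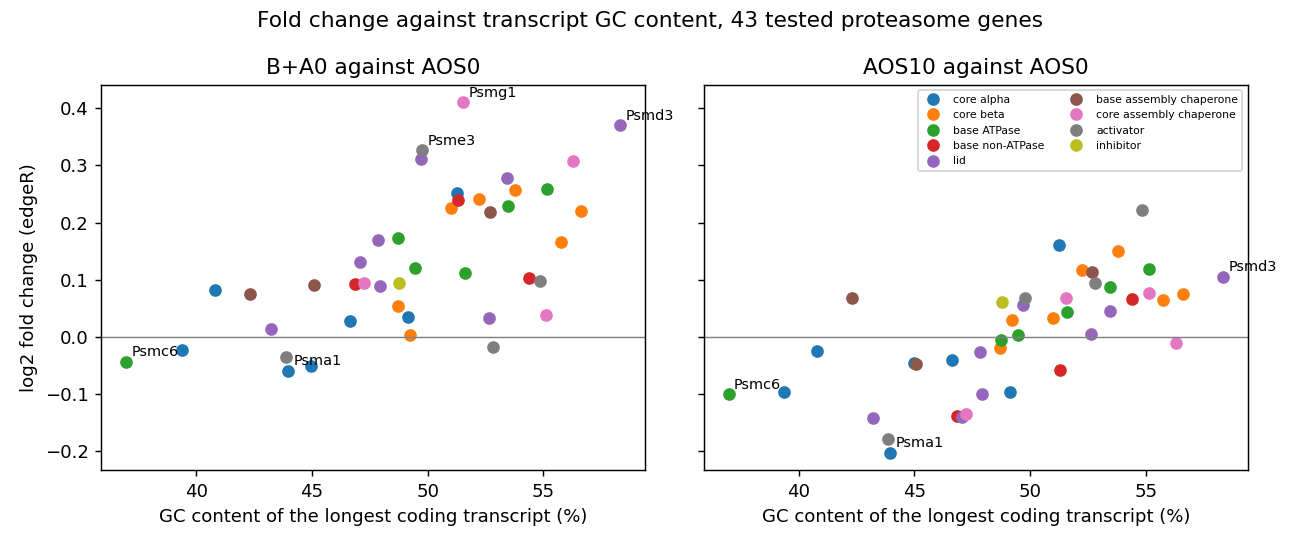
Log2 fold change (edgeR) of the 43 tested genes against the GC content of the longest coding transcript (percent), for B+A0 against AOS0 (left) and AOS10 against AOS0 (right), coloured by role; both use the AOS0 libraries. Genes of higher GC content lie higher in both panels, with r of 0.61 and 0.68.

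Other genes of the pathway were read from lists that are not members of the family. Of 33 tested genes that encode further subunits, assembly factors, regulators, shuttle proteins, deubiquitinases and other pathway proteins, 2 rose and 0 fell in B+A0 against AOS0 (edgeR), against 1.70% and 1.94% of all genes. Of the 33, 26 were above 0 (48.8% of all genes), with a median log2 fold change of 0.14. Nploc4, an adaptor of the segregase that extracts ubiquitinated proteins, was at 27.8, 26.1 and 24.0 FPKM in AOS0 and at 31.1, 32.1 and 33.0 FPKM in B+A0 (edgeR: 0.35 on the log2 scale, SE 0.077, adjusted p = 0.0324). Ddi2, the protease that activates Nfe2l1, was at 19.4, 24.1 and 16.5 FPKM in AOS0 and at 26.6, 29.1 and 26.6 FPKM in B+A0 (edgeR: 0.50 on the log2 scale, SE 0.124, adjusted p = 0.0461). The groups were apart for both genes. Nfe2l1 itself, a transcription factor for subunit genes, differed by 0.12 on the log2 scale (edgeR, SE 0.098, adjusted p = 0.503).

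In B+A10 against AOS0, 2 of the 33 rose and 0 fell (edgeR), against 0.754% and 0.203% of all genes. The log2 fold changes of 24 were above 0 (50.0% of all genes), with a median of 0.10. Among the 2 was Zfand2a, a stress-induced factor that binds the proteasome. It was at 5.25, 5.69 and 5.19 FPKM in AOS0 and at 12.5, 8.58 and 8.82 FPKM in B+A10 (edgeR: 0.94 on the log2 scale, SE 0.179, adjusted p = 0.0297). None of the 33 was called in the other 4 comparisons.

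Of the immunoproteasome subunits and their partners in antigen processing, 0 of 6 passed in any comparison. In B+A0 against AOS0 the log2 fold changes of Psmb8, Psmb9 and Psmb10 were 0.24, 0.31 and 0.22 (adjusted p = 0.218, 0.134 and 0.335, edgeR). In AOS10 against AOS0 they were 0.25, 0.31 and 0.26 (adjusted p = 0.788, 0.687 and 0.802, edgeR). Both comparisons share the AOS0 libraries. Psmb8, Psmb9 and Psmb10 replace Psmb5, Psmb6 and Psmb7, respectively, in the core of immune and interferon-exposed cells. In AOS0 their transcripts were at 268 ± 34.0, 322 ± 55.6 and 235 ± 8.21 FPKM. Psmb5, Psmb6 and Psmb7 were at 109.8 ± 2.69, 166 ± 2.51 and 175 ± 8.56 FPKM.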

How the data were processed

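Total RNA of mouse small intestine was sequenced in 12 libraries, and their groups are those of the labels. Per the submitters' processing notes the build was mm10; of the aligner, the counter, its strand and its annotation, nothing is given in the sources used here. The deposited values called read counts in the file headers are expected counts without normalization; 8.90% to 9.33% of values per library were not whole, and all were rounded. The authors' deposited expression values carry no unit in the header and were taken as FPKM, since over the 5071 genes of high count in each library the count per value followed the library total within 0.238%. The members, gene lists and tests were chosen with earlier results of these data known.

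The test was edgeR 4.0.16 under R 4.3.3, with filterByExpr (12329 genes kept), libraries scaled with TMM factors of 0.969 to 1.05, and 1 quasi-likelihood fit of 4 groups to all 12 libraries, with Benjamini-Hochberg adjustment over all genes tested and a threshold of 0.05. SE was obtained by dividing the log2 fold change by the root of the F statistic. The test was checked on simulated data. The planted changes were larger than any change of the family, so the check does not cover changes of that size. Depth was 13560232 to 16818245 counts per library; replicate pairs differed by more than counting noise (chi-square over its degrees of freedom 8.28 to 35.4). Named with values are called genes, in each role the most abundant gene and the one with the smallest p in B+A0 against AOS0, the catalytic subunits, Psme1, Psme2, Psma8 and Psmb11; others (among them Psmd7, Psmd14, Psmc6, Psma1, Psmg2 and Psmg3) were named after their values were seen. Gene positions and promoters are from RefSeq GRCm38.p6, matched by gene ID, and GC content from the longest coding transcript of GENCODE M21. Alternatives were DESeq2 1.42.0, its size factors, a replicate block, other low-count filters, fits to the compared groups alone, limma 3.58.1 on log2(FPKM + 1) and log2(FPKM + 0.1), leaving out each library and, added after seeing the data, removal of a GC trend per library. A gene that the rule names in a pathway list is not reported here. Figures were drawn with matplotlib 3.10.9.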

Additional observations from a re-analysis of the deposited data

Results flagged for a closer look

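Psmc5, an ATPase of the base, lay on opposite sides of its controls after busulfan with and without AOS. It was at 140.1, 132 and 136 FPKM in AOS0 and 142, 142 and 144 FPKM in B+A0, so every busulfan library lay above every control at AOS 0. At AOS 10 it was at 139.6, 131 and 139 FPKM without busulfan and 129, 119.9 and 127 FPKM with it, so every busulfan library lay below. The interaction was -0.23 on the log2 scale (SE 0.095, adjusted p = 0.691, edgeR) and did not pass. Psmc5 was picked by a scan of the 43 tested members for such opposite moves. The share of all genes that meet the rule was not counted. Groups did not overlap for 29.0% of all genes in B+A0 against AOS0 and for 14.9% in B+A10 against AOS10.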

How the results depend on the processing

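In B+A0 against AOS0 the number of family members called was 3; it was 9 with DESeq2, 0 in the fit of the compared groups, 0 with the replicate block, and 0 to 5 on leaving out 1 library, the 5 without B+A0 replicate 1. Psme3 was also lost by limma on both FPKM scales (log2 fold change 0.28). The median log2 fold change of the family in B+A0 against AOS0 was 0.0613 and 0.0618 by limma with pseudocounts of 1 and 0.1, and limma gave -0.0039 on both scales in AOS10 against AOS0 and -0.0595 and -0.0603 in B+A10 against AOS0. On leaving out 1 library the median was 0.0920 to 0.137 (B+A0 against AOS0), -0.155 to -0.0923 (B+A10 against B+A0), 0.0060 to 0.0425 (AOS10 against AOS0), -0.0339 to 0.0268 (B+A10 against AOS10), -0.0187 to 0.0404 (B+A10 against AOS0) and -0.184 to -0.1099 (interaction). In B+A10 against AOS0 the number called was 0 to 2 on leaving out 1 library, the 2 without B+A10 replicate 3. No called value changed its sign under any alternative run.
Over all genes, DESeq2 called 1025 genes in B+A0 against AOS0, 82 in B+A10 against B+A0, 63 in AOS10 against AOS0, 138 in B+A10 against AOS10, 463 in B+A10 against AOS0 and 17 for the interaction. The fit of the compared groups called 241, 62, 18 and 0 in B+A0 against AOS0, AOS10 against AOS0, B+A10 against AOS0 and B+A10 against AOS10. With the GC trend removed the counts were 826 (B+A0 against AOS0), 366 (B+A10 against AOS0), 65 (B+A10 against AOS10) and 2 (B+A10 against B+A0). With no low-count filter they were 8 (AOS10 against AOS0), 40 (B+A10 against AOS10) and 5 (B+A10 against B+A0), and limma gave 2 and 7 in B+A10 against AOS10. Leaving out 1 library gave from 21, for B+A0 replicate 3, up to 1099, for B+A0 replicate 1, in B+A0 against AOS0, 12 to 763 in B+A10 against AOS0, 0 to 61 in B+A10 against AOS10, 0 to 51 in B+A10 against B+A0, 0 to 13 in AOS10 against AOS0 and 0 to 1 for the interaction.
Same-numbered libraries showed little common deviation (1 of 18 pairs with r over 0.1, range -0.162 to 0.173). With 3 libraries per group this cannot exclude a pairing by number. Libraries of different numbers ran from -0.237 (B+A0 replicate 3 with B+A10 replicate 2) to 0.334 (B+A0 replicate 1 with B+A10 replicate 2). The replicate block called 193, 4, 15 and 3 genes in B+A0 against AOS0, B+A10 against B+A0, AOS10 against AOS0 and B+A10 against AOS10.
The core minus regulatory particle difference, taken as a median over genes, moved by -0.27 (B+A0 against AOS0), -0.24 (B+A10 against AOS0), -0.20 (B+A10 against AOS10), -0.0396 (AOS10 against AOS0) and 0.0635 (interaction). Taken as a mean over genes, the difference moved by -0.05 for B+A0 against AOS0, and by -0.08 to -0.04 on leaving out 1 library. The median over genes was not run with a library left out. The causes of these differences were not tested. Each tested member had at least 138 counts in each library.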
